A study of Mus musculus with 6 samples.

Results

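The IFIT genes encode interferon-induced proteins with tetratricopeptide repeats. The 4 members described here, Ifit1 (ENSMUSG00000034459), Ifit2 (ENSMUSG00000045932), Ifit3 (ENSMUSG00000074896) and Ifit3b (ENSMUSG00000062488), were taken from the 49328 genes of the deposited expression table by matching Ensembl identifiers to symbols. All 4 were found. They were measured by RNA sequencing of total RNA from cultured mesenchymal stromal cells (MSCs) in 2 groups of 3 libraries. Cells of the R group received, in culture, an agent that the labels call R (0.5 um, the unit as labelled), and cells of the vehicle group received DMSO, its solvent. The cells of both groups were cultured from digested, unsorted marrow of mice of the F1 hybrid strain CB6F1, all of which had acute graft-versus-host disease (aGVHD), an attack of transplanted donor lymphocytes on the tissues of the host. There was therefore no library from healthy mice. What R is, how long it was applied and how old the mice were is not stated in the labels. Nor do the labels tie the replicates of a group to different mice or dishes, so the p-values measure only the spread between these libraries, which may be technical.

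IFIT genes are nearly silent in most resting cells and are among the transcripts that increase most when a cell responds to interferon. Type I interferon acts through the receptor chains IFNAR1 and IFNAR2 and the kinases JAK1 and TYK2, which activate STAT proteins. STAT2 and IRF9 act in the complex ISGF3, which binds the interferon-stimulated response element (ISRE) in the promoters of its target genes. IRF3, activated downstream of RNA and DNA sensors, can switch on some IFIT genes without interferon. The IFIT proteins act on RNA and translation. IFIT1 binds messenger RNA whose cap lacks ribose methylation, a mark that many viral RNAs lack, and blocks its translation. IFIT2 also binds RNA and is required for resistance of mice to several neurotropic viruses. IFIT3 partners IFIT1 and IFIT2, and in human cells it stabilises IFIT1. Ifit3b is a close copy of Ifit3.

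Depth, recovered from the values, ran between 17070000 and 21750000 reads. Markers of 7 cell types were read beside the label of the cells. Of 14 stromal markers, 11 were high enough to be tested, among them Col1a1, Pdgfrb, Eng, Cd44 and Itgb1. Eng averaged 34.5 ± 11.7 FPKM with R and 47.7 ± 15.2 FPKM with vehicle, and Cd44 59.6 ± 9.23 FPKM with R and 56.7 ± 0.517 FPKM with vehicle. Lepr, Nt5e and Thy1, which are among the markers used to define marrow MSCs, stayed low (Lepr averaged 0.112 ± 0.0163 FPKM with R and 0.115 ± 0.0952 FPKM with vehicle). FPKM are fragments per kilobase of exon, scaled to the reads of the library, so levels can be compared between genes. Macrophage transcripts were abundant in both groups, with 14 markers summing to 12400 to 15400 FPKM with R and to 14900 to 19800 FPKM with vehicle. The measurements are those of a bulk culture that holds macrophages as well as stromal cells, and fewer cells of a type and less RNA per cell cannot be told apart in them.

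The 4 members lie within 99.3 kb of chromosome 19 (GRCm38, GENCODE M21), all on the plus strand. Ifit2 runs from 34550694 to 34576419, Ifit3 from 34583531 to 34588731, Ifit3b from 34607970 to 34613401 and Ifit1 from 34640871 to 34650009. Between them, on the minus strand, lie the related genes Ifit1bl1 (34592891 to 34601956) and Ifit1bl2 (34617049 to 34640743). The annotated start of Ifit1bl2 and that of Ifit1 point away from each other and are separated by 127 bases. The members share a gene structure in which all but 5 coding bases lie in the last exon. Ifit1, Ifit3 and Ifit3b have 2 exons each, and the full-length transcript of Ifit2 has 3. The coding sequences of Ifit3 and Ifit3b were identical at 99.1% of aligned bases, whereas the other pairs of members shared between 50.5% and 55.7%. Of the 50-base stretches of the Ifit3 transcript, 51.2% also occurred in Ifit3b, so that reads of these 2 genes could be split or misassigned by the authors' counting, and their separate values are uncertain. No 50-base stretch was shared by any other pair of members.

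The stretch just upstream of each annotated start is printed here because the family is defined by its response to factors that bind there. The sequences are from RefSeq (GRCm38.p6), plus strand, 5′ to 3′, and all 4 members were matched. They span chr19:34640639-34640870 for Ifit1, chr19:34550444-34550693 for Ifit2, chr19:34583279-34583530 for Ifit3 and chr19:34607707-34607969 for Ifit3b. Capitals mark matches on either strand to the ISRE core, written here as GAAA, any 2 bases and GAAA again.
Ifit1: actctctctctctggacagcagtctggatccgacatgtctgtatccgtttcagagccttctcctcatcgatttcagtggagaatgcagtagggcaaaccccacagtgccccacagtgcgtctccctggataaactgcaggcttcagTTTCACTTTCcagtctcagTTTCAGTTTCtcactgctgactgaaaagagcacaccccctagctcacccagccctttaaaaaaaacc
Ifit2: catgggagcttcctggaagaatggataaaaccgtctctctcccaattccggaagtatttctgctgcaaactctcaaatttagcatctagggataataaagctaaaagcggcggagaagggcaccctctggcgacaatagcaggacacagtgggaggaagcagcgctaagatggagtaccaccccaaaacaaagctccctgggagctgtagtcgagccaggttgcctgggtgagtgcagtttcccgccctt
Ifit3: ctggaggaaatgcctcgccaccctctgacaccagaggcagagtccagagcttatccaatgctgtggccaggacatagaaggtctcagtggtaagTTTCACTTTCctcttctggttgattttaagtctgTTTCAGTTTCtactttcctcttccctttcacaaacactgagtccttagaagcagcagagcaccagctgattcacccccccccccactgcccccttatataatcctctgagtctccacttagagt
Ifit3b: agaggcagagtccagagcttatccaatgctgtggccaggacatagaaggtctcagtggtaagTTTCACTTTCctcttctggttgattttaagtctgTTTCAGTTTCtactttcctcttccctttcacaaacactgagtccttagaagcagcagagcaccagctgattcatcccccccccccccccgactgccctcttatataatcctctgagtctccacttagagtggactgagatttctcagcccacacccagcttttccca

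The upstream stretches of Ifit1, Ifit3 and Ifit3b held 2 matches each, and in all 3 genes these were TTTCACTTTC and TTTCAGTTTC in this order, which read as the core on the minus strand. Counted in bases from the RefSeq start, with negative numbers upstream, they lay at -104 to -95 and -85 to -76 in Ifit1, at -156 to -147 and -122 to -113 in Ifit3, and at -188 to -179 and -154 to -145 in Ifit3b. The stretches of Ifit3 and Ifit3b were identical at 96.5% of 226 aligned columns. Among 32851 RefSeq windows of the same kind, which run from 250 bases before a start to 50 after it and have 300 bases, 3.44% held at least 1 match and 0.225% at least 2. Ifit2 held no match in the window of either of its 2 RefSeq starts, which says only that these letters are not in these windows. The Ifit2 window held 1 match to TTCNNNGAA, the pattern bound by STAT dimers (the GAS element), which 8.3% of windows hold and which was not found in the windows of the other 3 members. No binding was measured in these libraries.

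**Figure D1:**
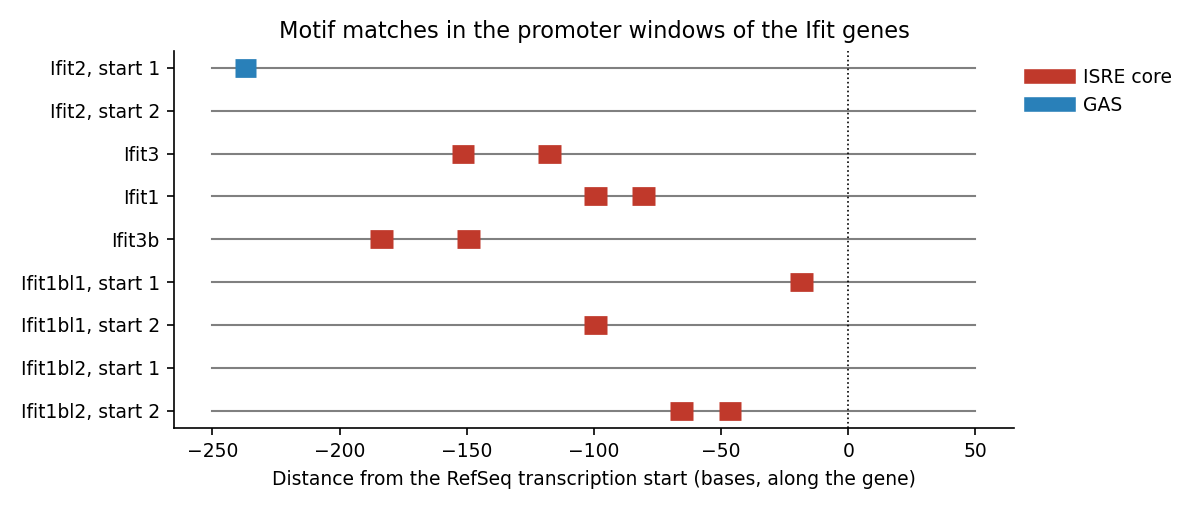
Matches to the ISRE core and to the GAS pattern in the RefSeq windows of the Ifit genes and the related genes Ifit1bl1 and Ifit1bl2, by position in bases from each RefSeq start. Ifit1, Ifit3 and Ifit3b hold 2 ISRE core matches each, and Ifit2 holds none and 1 GAS match.

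All 4 members were lower in R-treated cells than in vehicle-treated cells. The mean level with R was 9.93% of that with vehicle for Ifit2, 6.37% for Ifit3, 16.3% for Ifit3b and 0.831% for Ifit1. For each of the 4, every R library was below every vehicle library, which held for 10.2% of all 25575 genes seen in at least 1 library. In limma's test over 11862 genes with at least 1 FPKM in at least 3 libraries, Ifit1, Ifit2 and Ifit3 were tested and passed at an adjusted p under 0.05, where 4.43% of genes passed as lower in R. Ifit1 and Ifit3 were under 1 FPKM in every R library and entered this test through their vehicle values alone. Of the 101 tested genes that entered in this way, 69 were called lower, so 4.43% is a low yardstick for them. Ifit3b was left out of that test because it reached 1 FPKM in only 2 libraries.

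Ifit2, the member with the highest level in both groups, had 1.78, 1.39 and 1.99 FPKM in R replicates 1, 2 and 3, and 22.6, 15.9 and 13.5 FPKM in vehicle replicates 1, 2 and 3. The groups were far apart, since the lowest vehicle library held several times the level of the highest R library. Its mean was 1.72 ± 0.304 FPKM with R and 17.3 ± 4.72 FPKM with vehicle (SD, n = 3 each), a 10.1-fold lower level with R. The log2 change (R minus vehicle, computed on log2(FPKM + 1) values) was -2.73 (SE 0.19, limma adjusted p = 0.00049). Ifit2 was the only member at or above 1 FPKM in all 6 libraries, so it alone passed the filter on low values through both groups.

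Ifit3, the partner of IFIT1 and IFIT2, had 0.685, 0.701 and 0.571 FPKM in the R libraries and 12.5, 9.18 and 9.11 FPKM in the vehicle libraries. The R libraries lay close together and all were under 1 FPKM. Its mean was 0.652 ± 0.071 FPKM with R and 10.2 ± 1.91 FPKM with vehicle (SD, n = 3 each), 15.7-fold lower with R, with a log2 change of -2.75 (SE 0.14, limma adjusted p = 0.00014).

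Ifit1, the cap-binding member, was almost absent with R. It had 0.0519, 0 and 0.0833 FPKM in the R libraries and 6.55, 4.56 and 5.17 FPKM in the vehicle libraries. These R values stand for 3, 0 and 4 reads, against 297, 227 and 275 reads in the vehicle libraries. A count of 0 in R replicate 2 allows up to 3 reads, or 0.0628 FPKM. The mean was 0.0451 ± 0.0421 FPKM with R and 5.43 ± 1.02 FPKM with vehicle (SD, n = 3 each), with a log2 change of -2.61 (SE 0.14, limma adjusted p = 0.00022). Because 1 FPKM is added before taking logs, this change understates the drop of a gene so close to 0, and with a pseudocount of 0.1 the log2 change was -5.28 (SE 0.34, adjusted p = 0.0005).

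Ifit3b was the lowest member with vehicle. It had 0.069, 0.306 and 0.221 FPKM in the R libraries and 1.41, 0.934 and 1.32 FPKM in the vehicle libraries, from 3, 11 and 8 reads with R and 48, 35 and 53 reads with vehicle. The groups did not overlap, although the R libraries differed up to 4.43-fold among themselves at these low counts. Its mean was 0.199 ± 0.12 FPKM with R and 1.22 ± 0.252 FPKM with vehicle (SD, n = 3 each), 6.15-fold lower with R. With a filter on the mean of all 6 libraries of at least 0.5 FPKM, which was chosen after the data were seen, 13380 genes were tested and Ifit3b, which cleared this filter through its vehicle values, had a log2 change of -0.89 (SE 0.15, limma adjusted p = 0.021). It then passed, where 3.86% of genes passed as lower in R. With no filter, where 1.09% of 25575 genes passed as lower in R, its log2 change was also -0.89 (SE 0.13, limma adjusted p = 0.043).

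**Figure D2:**
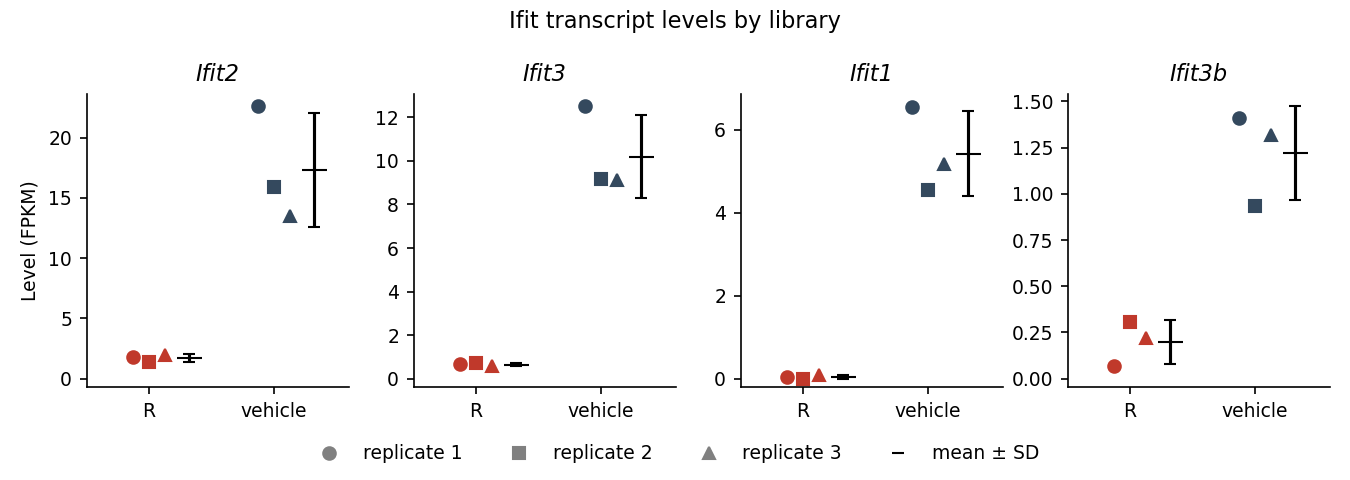
Level of each Ifit gene in FPKM in every library, R at the left of each pair and vehicle at the right, with points for libraries and bars for the mean and SD of 3. All 4 genes show the R libraries below the vehicle libraries, with Ifit2 at 1.39 to 1.99 FPKM with R and 13.5 to 22.6 FPKM with vehicle.

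The pooled reads gave a different proportion for each member. Pooled over 3 libraries, Ifit1 had 7 reads with R and 799 with vehicle, and its rate per read of depth with R was 0.846% of that with vehicle (95% exact counting interval 0.339% to 1.75%). Ifit3 had 66 and 989 reads in R and vehicle, a rate of 6.44% (4.94% to 8.27%). Ifit2 had 391 and 3739 reads in R and vehicle, a rate of 10.1% (9.08% to 11.2%). Ifit3b had 22 and 136 reads in R and vehicle, a rate of 15.6% (9.48% to 24.6%). The interval of Ifit1 lay below those of the other members, and the interval of Ifit3 below those of Ifit2 and Ifit3b, whereas Ifit2 and Ifit3b overlapped. These intervals cover counting error only and not the spread between libraries.

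**Figure D3:**
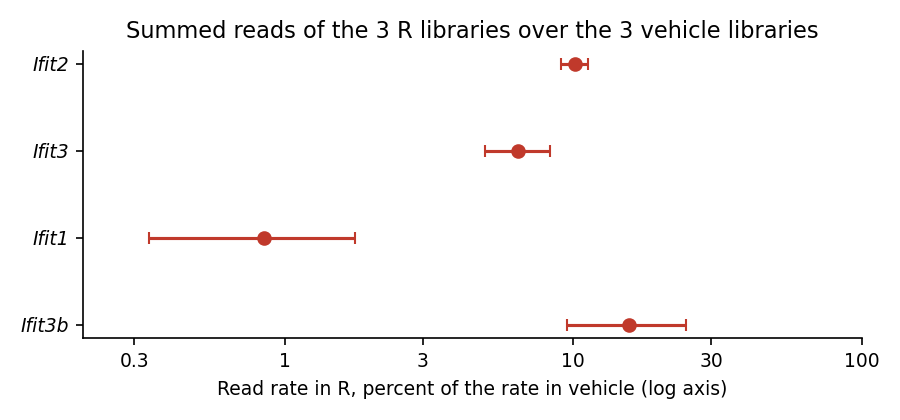
Rate of reads with R as a percentage of that with vehicle for each Ifit gene, pooled over 3 libraries per group, on a log axis, with 95% exact counting intervals. Ifit1 is at 0.846%, below Ifit3 at 6.44%, Ifit2 at 10.1% and Ifit3b at 15.6%.

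Differences between members were also tested over libraries, as the log2 ratio of 2 members in each library, by an exact two-sided permutation test adjusted over all 6 pairs. With 3 libraries against 3 this test cannot give a p under 0.1, so no pair can pass a threshold of 0.05. On the log2(FPKM + 1) scale, Ifit1 and Ifit2 differed in their log2 change by 0.12 (exact permutation p = 0.5, adjusted p = 0.6), Ifit1 and Ifit3 by 0.14 (exact permutation p = 0.2, adjusted p = 0.3) and Ifit2 and Ifit3 by 0.03 (exact permutation p = 1.0). The direction of the first 2 differences turned with a pseudocount of 0.1, at which Ifit1 fell further than Ifit2 by a log2 difference of -2.04 and further than Ifit3 by -1.51 (exact permutation p = 0.1 and adjusted p = 0.12 for both). The log2 changes of Ifit1, Ifit2 and Ifit3 differed from that of Ifit3b by -1.72, -1.84 and -1.87 on the log2(FPKM + 1) scale, each with the smallest p of this test (exact permutation p = 0.1, adjusted p = 0.2). With a pseudocount of 0.1 these differences were -3.06, -1.02 and -1.55 (exact permutation p = 0.1, 0.2 and 0.1, adjusted p = 0.12, 0.2 and 0.12), so that their size and order depend on the pseudocount.

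The order of the levels differed between the groups at its lower end. In all 3 R libraries Ifit2 was highest, followed by Ifit3, Ifit3b and Ifit1, and in all 3 vehicle libraries the order was Ifit2, Ifit3, Ifit1 and Ifit3b. With vehicle no neighbours in this order overlapped in their range over libraries. With R, Ifit3b and Ifit1 did, and in R replicate 1 both rested on 3 reads. The level of Ifit1 was 0.753, 0 and 0.377 times that of Ifit3b in the R libraries and 4.66, 4.88 and 3.91 times in the vehicle libraries.

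Summed over the family, the level was 2.59, 2.39 and 2.86 FPKM in the R libraries and 43.0, 30.6 and 29.1 FPKM in the vehicle libraries. All 4 members were highest in replicate 1 among the vehicle libraries, whereas no single R library was highest for all 4. Ifit1 made up 1.64% ± 1.49 of the sum with R and 16.0% ± 1.58 with vehicle. Ifit2 made up 65.4% ± 6.46 of it with R and 50.3% ± 3.45 with vehicle, Ifit3 25.2% ± 4.79 with R and 30.1% ± 1.19 with vehicle, and Ifit3b 7.72% ± 5.05 with R and 3.63% ± 0.812 with vehicle (SD, n = 3 each). The shares of Ifit1 and Ifit2 did not overlap between the groups, with Ifit1 lower and Ifit2 higher with R, and those of Ifit3 and Ifit3b did. The level of Ifit3 was 9.93, 2.29 and 2.58 times that of Ifit3b in the R libraries and 8.86, 9.82 and 6.88 times in the vehicle libraries.

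The genes around the family were examined within 250 kb on either side, where the annotation lists 16 genes other than the members. Of these, 7 were measured and 9 were not analysed here. None of the 3 that were tested passed in limma over all 6 libraries, where 6.82% of all genes passed in either direction, and 1 of them, Ch25h, had an unadjusted p under 0.05. Lipa, which encodes lysosomal acid lipase and lies before Ifit2, had 484, 377 and 464 FPKM in the R libraries and 466, 429 and 414 FPKM in the vehicle libraries. The groups overlapped, with a log2 change of 0.01 (SE 0.12, limma adjusted p = 0.97). Pank1, which encodes a pantothenate kinase and lies beyond Ifit1, averaged 2.93 ± 0.593 FPKM with R and 2.64 ± 0.459 FPKM with vehicle (SD, n = 3 each), with a log2 change of 0.11 (limma adjusted p = 0.73).

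Ch25h, the interferon-inducible gene of cholesterol 25-hydroxylase, had 7.83, 4.28 and 3.53 FPKM in the R libraries and 7.16, 7.79 and 8.51 FPKM in the vehicle libraries. R replicate 1 lay within the vehicle range and the other two R libraries below it. Its log2 change was -0.56 (SE 0.24, limma adjusted p = 0.2), and without R replicate 1 it was -0.85 (adjusted p = 0.024). Ch25h overlaps the antisense gene Gm26902, which averaged 0.369 FPKM with R and 0.291 FPKM with vehicle, and the labels do not say whether the counting used strand. Slc16a12, a monocarboxylate transporter gene, was near 0, with 0.031 FPKM with R and 0.0651 FPKM with vehicle on average.

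The related genes between the members were low throughout. Ifit1bl1 had 0, 0.196 and 0.195 FPKM in the R libraries and 1.11, 0.446 and 0.989 FPKM in the vehicle libraries. Ifit1bl2 had 0.041, 0 and 0.0329 FPKM in the R libraries and 0.191, 0.0793 and 0.0742 FPKM in the vehicle libraries, from 3, 0 and 2 reads with R and 11, 5 and 5 reads with vehicle. Neither overlapped between the groups, and neither was tested in the filtered fit. With no filter neither passed, with a log2 change of -0.69 for Ifit1bl1 (SE 0.17, limma adjusted p = 0.13) and -0.12 for Ifit1bl2 (SE 0.05, limma adjusted p = 0.33). The coding sequence of Ifit1bl2 was identical to that of Ifit1 at 73.5% of aligned bases, and 5.55% of its 50-base stretches also occurred in Ifit1, so a few of its reads may belong to Ifit1. The same 2 ISRE core matches, at 34640785 to 34640794 and 34640804 to 34640813, lie in the windows of both Ifit1 and Ifit1bl2 on the stretch that separates their starts, while the vehicle libraries held 4.56 to 6.55 FPKM of Ifit1 and 0.0742 to 0.191 FPKM of Ifit1bl2.

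**Figure D4:**
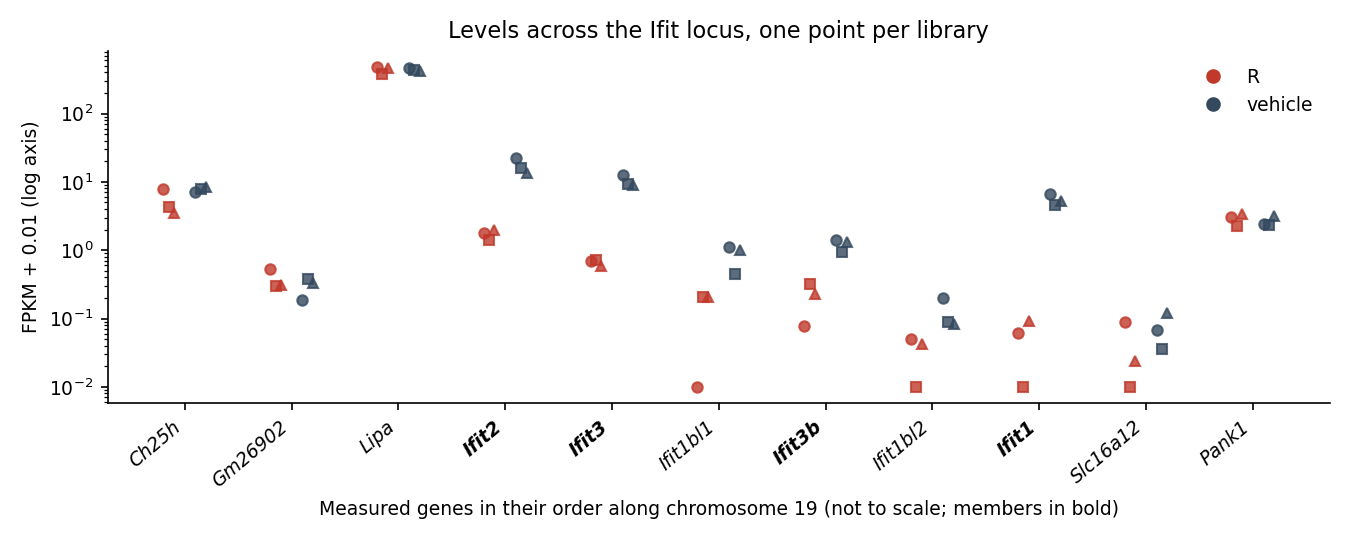
Level in every library, as FPKM + 0.01 on a log axis, of the measured genes of the Ifit locus in their order along the chromosome, with R left of vehicle for each gene and 1 point per library. Lipa and Pank1 overlap between the groups, and the 4 Ifit genes and the related Ifit1bl1 and Ifit1bl2 do not.

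Genes that switch IFIT genes on, restrain them or act with their products were listed, as were other antiviral effectors induced by interferon. Together these made 7 lists with 77 genes in the table. Of the 69 that were tested, 31 fell and 0 rose in limma's test. The share that fell was 44.9%, where 4.43% of all tested genes were lower and 2.39% higher. The median log2 change of the 69 was -0.57, where that of all tested genes was 0.00. The other antiviral effectors, of which 18 were tested, supplied 17 of the 31, so the share rests largely on that list. Of the 31, 12 were under 1 FPKM in every R library and passed the filter on low values through vehicle alone. Among all tested genes 101 entered in this way, and 69 of them were among the 525 called lower. In the lists, all 12 that entered in this way were called lower, so the share of 44.9% rests partly on such genes. With no filter on low values, 29 of 73 listed genes were called lower, where 1.09% of 25575 genes were. The members and these lists were chosen with earlier results of these data known, so that these counts describe the lists.

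Of the type I interferon signalling genes, 3 of 7 tested fell, and the list's median log2 change was -0.35. Among those that fell were 2 that encode subunits of ISGF3. Stat2 had 3.97, 3.23 and 3.88 FPKM in the R libraries and 19.6, 13.6 and 11.1 FPKM in the vehicle libraries. Irf9 had 2.4, 2.35 and 2.47 FPKM in the R libraries and 13.3, 12.2 and 10.3 FPKM in the vehicle libraries. Neither gene overlapped between the groups. Stat2 averaged 3.69 ± 0.405 FPKM with R and 14.8 ± 4.36 FPKM with vehicle (log2 change -1.72, limma adjusted p = 0.0034), and Irf9 averaged 2.41 ± 0.0563 FPKM with R and 11.9 ± 1.53 FPKM with vehicle (log2 change -1.92, adjusted p = 0.00024; SD, n = 3 each). The receptor chains and kinases upstream of them did not pass, with log2 changes of -0.16 for Ifnar1, -0.26 for Ifnar2, -0.31 for Tyk2 and -0.35 for Jak1 (limma adjusted p = 0.31, 0.15, 0.21 and 0.096). All 7 tested genes of the list had negative log2 changes, and 6 had an unadjusted p under 0.05 in limma's test. Ifnar1, Ifnar2 and Jak1 had every R library below every vehicle library, where 15.5% of the 11862 tested genes did, and Tyk2 overlapped. The ligand genes Ifnb1, Ifna1, Ifna2 and Ifna4 had 0 reads in all 6 libraries, which allows up to 0.234, 0.308, 0.17 and 0.313 FPKM in the shallowest of them.

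Of the type II interferon signalling genes, 1 of 5 tested fell. This was Irf1, a transcription factor that interferon-gamma induces and that can bind ISRE-like sequences. It had 6.66, 8.01 and 6.69 FPKM in the R libraries and 58.8, 52.9 and 36.4 FPKM in the vehicle libraries, with no overlap (log2 change -2.61, SE 0.18, limma adjusted p = 0.00049). Irf8 had a log2 change of -0.61 (limma adjusted p = 0.074), which passed without vehicle replicate 3 (-0.77, adjusted p = 0.027). Jak2 had a log2 change of -0.27 (limma adjusted p = 0.33), which passed without R replicate 3 (-0.44, adjusted p = 0.049), and Ifngr1 one of -0.18 (adjusted p = 0.42). The ligand gene Ifng, named here after its values were seen, was too low to be tested, with 1, 0 and 0 reads in the R libraries and 7, 11 and 7 reads in the vehicle libraries.

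Interferon-gamma is made mainly by T and NK cells, and the markers of these cells are given beside it. Summed over 10 markers, their level was 2.45 to 7.07 FPKM with R and 6.98 to 12.7 FPKM with vehicle, and 6 of the 10 had every R library below every vehicle library, where 10.2% of genes did. Cd4 went the other way, with 4.25, 1.43 and 1.58 FPKM in the R libraries and 0.974, 1.27 and 0.942 FPKM in the vehicle libraries, every R library being above every vehicle library (log2 change 0.64, limma adjusted p = 0.24). Of the 3 tested, Nkg7 fell (0.142 ± 0.126 FPKM with R and 2.22 ± 0.77 FPKM with vehicle, SD, n = 3 each, limma adjusted p = 0.0079), where 4.43% of all tested genes were lower. Nkg7 was under 1 FPKM in every R library and entered the test through its vehicle values alone. Of the 101 tested genes that entered in this way, 69 were called lower. Cd3e averaged 0.0498 FPKM with R and 0.186 FPKM with vehicle, and Ncr1 was at 0 in all 6 libraries. The part of these cells in the IFIT values was not tested.

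Of the genes of RNA and DNA sensing, which lead to IRF3 and IRF7, 7 of 13 tested fell, with a list median log2 change of -0.78. The largest change in this list was that of Irf7, the interferon-induced relative of IRF3, with 0.402, 0.854 and 0.542 FPKM in the R libraries and 15.8, 11.5 and 12.2 FPKM in the vehicle libraries (log2 change -3.15, SE 0.16, limma adjusted p = 0.00014). The RNA helicases of the RIG-I family followed, with 2.4 ± 0.351 FPKM of Dhx58 with R and 9.46 ± 1.52 FPKM with vehicle (log2 change -1.62, adjusted p = 0.00099), and 3.66 ± 0.323 FPKM of Ddx58, the RIG-I gene, with R and 10.1 ± 1.13 FPKM with vehicle (log2 change -1.25, adjusted p = 0.0011). Tmem173, which encodes the adaptor STING, averaged 11.2 ± 0.708 FPKM with R and 24.9 ± 2.8 FPKM with vehicle (log2 change -1.08, limma adjusted p = 0.0017; SD, n = 3 each). Irf3 itself, at 15.1 ± 2.14 FPKM with R and 14.3 ± 0.124 FPKM with vehicle, did not pass (log2 change 0.07, limma adjusted p = 0.76).

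Of the feedback inhibitors of interferon signalling, 3 of 7 tested fell. Usp18, which blocks the IFNAR2 chain, averaged 0.126 ± 0.0633 FPKM with R and 3.42 ± 1.14 FPKM with vehicle (log2 change -1.94, limma adjusted p = 0.0027). Socs1, an inhibitor of JAK kinases, averaged 0.972 ± 0.121 FPKM with R and 5.81 ± 1.14 FPKM with vehicle (log2 change -1.78, adjusted p = 0.00094). Socs3, of the same family, averaged 6.64 ± 1.46 FPKM with R and 26.1 ± 1.83 FPKM with vehicle (log2 change -1.84, adjusted p = 0.00087; SD, n = 3 each). The phosphatase gene Ptpn6 had a log2 change of -0.61 (limma adjusted p = 0.053), which passed under some alternatives, among them leaving out vehicle replicate 3 (-0.75, adjusted p = 0.022).

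The genes of the machinery on which IFIT proteins act did not pass in limma's test. Of all tested genes 6.82% passed in either direction, and at that share lists this short would hold few passing genes or none. Of the genes of cap methylation and cap binding, 0 of 5 tested passed and 0 had an unadjusted p under 0.05. Their changes were small, with log2 changes of 0.12 for Ncbp2 and 0.09 for Ncbp1, the subunits of the nuclear cap-binding complex, 0.08 for the cap guanine methyltransferase gene Rnmt and 0.02 for Ramac, its activating subunit (limma adjusted p = 0.51, 0.58, 0.68 and 0.90). Cmtr1, whose product methylates the ribose that IFIT1 probes, was too low to be tested, at 0.344 ± 0.0959 FPKM with R and 0.453 ± 0.0986 FPKM with vehicle (SD, n = 3 each). Of the 14 subunits of translation initiation factor eIF3, which IFIT1 and IFIT2 bind, 0 passed and 1, Eif3j2, had an unadjusted p under 0.05 (log2 change 0.60, adjusted p = 0.14). Eif3e, whose human counterpart binds human IFIT1, averaged 21.8 ± 1.21 FPKM with R and 24.2 ± 1.38 FPKM with vehicle (log2 change -0.15, limma adjusted p = 0.35), Eif3j1 had a log2 change of -0.21 (adjusted p = 0.29) and Eif3g one of 0.22 (adjusted p = 0.30). The log2 change of Ramac turned to -0.03 without R replicate 1.

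Of 20 other antiviral effector genes induced by interferon, 18 were tested and 17 fell, with a median log2 change of -2.19. Of the 17, 10 were under 1 FPKM in every R library and entered the test through their vehicle values alone. All 20 had every R library below every vehicle library, which held for 10.2% of genes seen in at least 1 library. Rtp4, which encodes an interferon-induced receptor transporter protein, had 0.259, 0.261 and 0.26 FPKM in the R libraries and 35.4, 25.9 and 24.5 FPKM in the vehicle libraries, a level with R of 0.909% of that with vehicle (log2 change -4.54, SE 0.14, limma adjusted p = 5.5e-05). Cmpk2, a mitochondrial nucleotide kinase gene, stood at 1.09% of its vehicle mean, with 0.0538 ± 0.059 FPKM with R and 4.93 ± 0.278 FPKM with vehicle (log2 change -2.49, adjusted p = 8.5e-05). Zbp1, which senses Z-form RNA and DNA, stood at 2.92% (log2 change -3.23, limma adjusted p = 8.5e-05) and Oas3, an oligoadenylate synthetase gene, at 6.82% (log2 change -2.95, limma adjusted p = 8.2e-05). Ifit1, at 0.831% of its vehicle mean, lay near Rtp4 and Cmpk2 on this measure, and Ifit3 near Oas3.

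**Figure D5:**
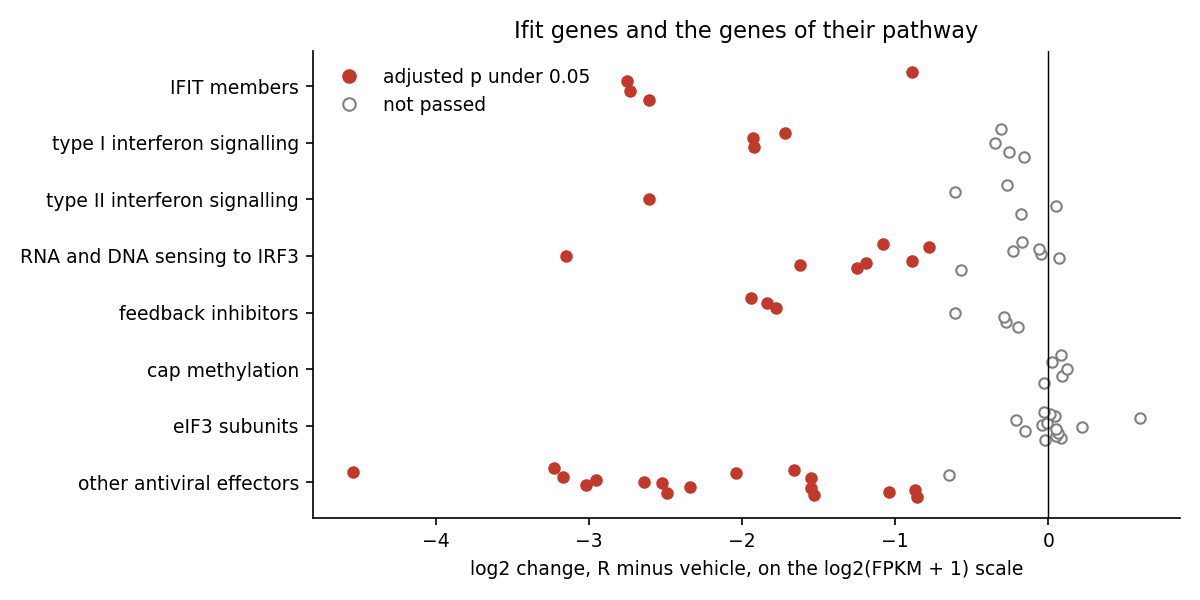
Log2 change (R minus vehicle, from log2(FPKM + 1) values) of the Ifit genes and of the tested genes of 7 lists, filled where limma's adjusted p was under 0.05 and open where it was not, with Ifit3b (-0.89) taken from the filter on the mean level. The 4 Ifit genes and 31 genes of the lists are filled and left of 0, and the cap methylation and eIF3 genes are open, between -0.21 and 0.60.

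Among the 11862 tested genes, Ifit3, Ifit2 and Ifit1 ranked 38, 39 and 44 from the deepest fall on the log2(FPKM + 1) scale. These ranks depend on the pseudocount, and were 42, 62 and 15 with a pseudocount of 0.1 and 65, 41 and 138 with one of 5. The genes whose pattern was most like the family were found among 7089 other protein-coding genes with a vehicle mean of at least 5 FPKM. Likeness was the root mean square difference over the 6 libraries between a gene's log2(FPKM + 1), centred on its vehicle mean, and the mean of the 4 members centred in the same way. That mean was -2.27, -2.26 and -2.21 in the R libraries and 0.26, -0.15 and -0.11 in the vehicle libraries. In the R libraries it lay between the log2 change of Ifit3b (-0.89) and those of Ifit1, Ifit2 and Ifit3 (-2.61, -2.73 and -2.75). It therefore matches no single member, and it depends on the pseudocount. The closest gene was C3, the gene of complement component C3, at a difference of 0.071, with 9.66, 9.72 and 9.29 FPKM in the R libraries and 60.6, 40.1 and 43.9 FPKM in the vehicle libraries. Like all 4 members, C3 and the genes named next were highest in vehicle replicate 1, which the measure of likeness favours. Oas1g followed at 0.104, Ly6e at 0.174, Parp14 at 0.177, Fpr2 at 0.191 and Tap1 at 0.215, where the median over all candidates was 1.58. Oas1g averaged 0.525 ± 0.103 FPKM with R and 6.97 ± 1.47 FPKM with vehicle, and Ly6e, the most abundant of the 6, averaged 50.2 ± 7.67 FPKM with R and 236 ± 51.0 FPKM with vehicle (SD, n = 3 each). By the ratio of mean FPKM, C3, Ly6e, Parp14 and Tap1 fell less than every member. These genes were chosen for their values, so that their likeness is a description.

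Markers of cell types that could carry IFIT transcripts were read from the same fit. Of 14 macrophage markers tested, 3 fell and 11 did not pass, with a median log2 change of -0.62, where 4.43% of all tested genes were lower and their median was 0.00. Of the 14, 9 had an unadjusted p under 0.05 and 9 had every R library below every vehicle library, where 15.5% of the 11862 tested genes did. Those that fell were Fcgr1, an Fc receptor gene that interferon-gamma also induces (log2 change -2.47, limma adjusted p = 0.0021), Msr1 (-1.43, adjusted p = 0.00084) and Itgam (-0.94, adjusted p = 0.0058). Among those that did not pass, Marco had a log2 change of -1.38 (limma adjusted p = 0.07), C1qa one of -0.90 (adjusted p = 0.075), Mrc1 one of -0.83 (adjusted p = 0.078), C1qb one of -0.70 (adjusted p = 0.079) and Adgre1 one of -0.53 (adjusted p = 0.088), each with no overlap between the groups. Cd68 had a log2 change of 0.11 (limma adjusted p = 0.58), Lyz2 one of -0.23 (adjusted p = 0.54) and Csf1r one of -0.30 (adjusted p = 0.25). Of the 11 stromal markers tested, 0 passed in limma's test and 5 had an unadjusted p under 0.05. Their median log2 change was 0.39, with 7 positive and 4 negative. The 5 were Col1a1, Cd200, Pdgfrb, Prrx1 and Itgb1, with log2 changes of 1.19, 0.95, 0.65, 0.53 and 0.39. Each had every R library above every vehicle library. Of all tested genes, 29.3% did not overlap in 1 direction or the other, which includes the 15.5% with R below. Thy1, too low to be tested, had every R library below every vehicle library. The stromal markers summed to 975 to 1400 FPKM with R and to 607 to 984 FPKM with vehicle. Of the 4 plasmacytoid dendritic cell markers, Siglech and Klk1 were at 0 in all 6 libraries and the sum was 0.651 to 0.823 FPKM with R and 0.539 to 0.821 FPKM with vehicle. B cell markers summed to 0.0773 to 0.307 FPKM with R and 0.145 to 0.371 FPKM with vehicle, neutrophil markers to 5.99 to 9.5 FPKM with R and 7.64 to 14.3 FPKM with vehicle, and endothelial markers to 2.19 to 5.26 FPKM with R and 1.29 to 1.88 FPKM with vehicle. The part of these cells in the IFIT values was not tested.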

How the data were processed

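The authors deposited 1 table of FPKM per gene for the 6 libraries. The submitters' processing notes name GRCm38 (mm10) as the build and edgeR 3.18.1 as a tool, with no role stated. No source used here names the aligner, counter, annotation, read length or strandedness. Groups were taken from sample titles. Symbols, positions and exon lengths came from GENCODE M21, which named 49281 of 49328 identifiers, and the final line of the table was incomplete and left out. Reads were recovered as FPKM times exon length, divided by the same product for a single read. Within 0.02 reads of a whole number, 98.3% to 98.4% of values under 20.5 reads were whole in each library, and all values of the 4 members were. This gave 21750000, 17980000 and 18070000 reads for the R libraries and 17070000, 18740000 and 20010000 reads for the vehicle libraries, in the order of their replicate numbers. Intervals and the limit of 3 reads for a count of 0 cover counting error only.

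Values were tested as log2(FPKM + 1) with limma 3.58.1 under R 4.3.3, with a trend in the prior variance, genes kept at 1 FPKM or more in at least 3 libraries, and Benjamini-Hochberg adjustment over all 11862 tested genes at 0.05. Ratios of members were tested by exact permutation with SciPy 1.17.1, and sequences were aligned with Biopython 1.88. Alternatives were other pseudocounts, filters and scalings, no variance trend, a replicate block and leaving out each library. The members and lists were chosen with earlier results of these data known. Genes were named by a rule that takes all members, the measured genes of the locus, up to 4 tested genes per list with the smallest p-values, a few transcription factors including Stat2, Irf9, Irf1 and Irf7, and the 6 genes most like the family. Some genes under this rule are not reported here. Other genes named, such as receptor chains, ligands and cell markers, were chosen after their values were seen. Promoter sequences were from RefSeq (GRCm38.p6).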

Additional observations from a re-analysis of the deposited data

How the results depend on the processing

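Ifit1, Ifit2 and Ifit3 were lower with R and past the threshold under every alternative in which they were tested, and Ifit1 was not tested with a filter of 5 FPKM in 3 libraries. Without each library in turn, the log2 change was -2.71 to -2.49 for Ifit1, -2.88 to -2.53 for Ifit2, -2.83 to -2.62 for Ifit3 and -0.99 to -0.81 for Ifit3b, and 3 members passed each time. For Ifit3b the log2 change was -0.89 and untested with the main filter, -0.89 with no filter (limma adjusted p = 0.043), -0.89 with the filter on the mean (adjusted p = 0.021), -2.22 with a pseudocount of 0.1 and -0.26 with one of 5. With a pseudocount of 0.1 and the filter on the mean together it was -2.22 (adjusted p = 0.035). The filter on the mean, alone and in this combination, was added after the data were seen. The size of these changes follows the pseudocount, since Ifit3b is close to 1 FPKM.

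The number of genes called in either direction was 809, against 344 with no filter, where 25575 genes were tested, and 337 to 879 without each library in turn. It was lowest without vehicle replicate 1 and highest without vehicle replicate 3, and was 425, 422 and 506 without R replicates 1, 2 and 3 and 385 without vehicle replicate 2. Fewer samples enter these fits. The cause was not tested beyond that. Genes of the locus called numbered 0 to 1 without each library in turn, the 1 being Ch25h without R replicate 1. Of the 69 pathway genes tested, 31 were lower, and 23 to 35 were under the alternatives. The 23 came from the filter of 5 FPKM in 3 libraries, which tested 55 of them and called 6.01% of all its genes lower. The 35 came from leaving out vehicle replicate 3, with 69 tested and 4.44% of all genes lower.

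Some small differences changed sign. With a pseudocount of 0.1 the difference of log2 changes was -2.04 for Ifit1 against Ifit2 and -1.51 for Ifit1 against Ifit3. That of Ifit2 against Ifit3 was -0.29 with a pseudocount of 5, -0.02 after quantile normalization, -0.08 without R replicate 3 and -0.06 without vehicle replicate 3, in a range of -0.08 to 0.14 without each library in turn. The log2 change of Lipa was -0.06 without R replicate 1, -0.03 without R replicate 3 and -0.03 without vehicle replicate 3, in a range of -0.06 to 0.12, and that of Ramac -0.03 without R replicate 1, in a range of -0.03 to 0.07. The cause was not tested.

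Replicate numbers are shared by the groups, but same-numbered libraries correlated at 0.14, -0.01 and -0.03 in their deviations from the group means, so the numbers were not taken as pairs. With a replicate block, 756 genes, 3 members and 33 pathway genes were called, and the log2 changes of the members were -2.61 for Ifit1, -2.73 for Ifit2 and -2.75 for Ifit3. Among the named genes the block also brought Irf8 (-0.61, limma adjusted p = 0.043) and Ptpn6 (-0.61, adjusted p = 0.03) past the threshold. Not every library correlated best with its own number. With 7 reads of Ifit1 and 22 of Ifit3b over the R libraries, depth limits how far these levels can be told apart there.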
